A study of Mus musculus with 6 samples.

Results

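Among the miRNAs measured in mouse kidney, the names of the erythroid miR-451, miR-144 and miR-486 were taken by their prefix in the count table, which gave 6 of the 495 mature miRNAs. These were mmu-miR-451a, mmu-miR-144-5p, mmu-miR-144-3p, mmu-miR-486a-5p, mmu-miR-486b-5p and mmu-miR-486a-3p, and all 6 passed the filter on low counts. The samples were whole kidney tissue of male balb/c mice, with 3 in the Control group and 3 in the chronic intermittent hypoxia (CIH) group, a model of the oxygen swings of sleep apnea. CIH mice breathed oxygen that fell to 6% within 60 s and returned to 21% within the next 60 s, 30 times per hour, for 8 h per day over 8 weeks, and Control mice received room air in the chamber. No allele or drug distinguished the groups. Nothing in the labels or the paper ties each sample to a separate mouse, so the p-values refer to the spread among the samples, which may be technical. Whether the kidneys were flushed of blood is not given in the sources used here.

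miR-144 and miR-451 are cut from 1 primary transcript that the transcription factor GATA1 turns on in red cell precursors, and mature red cells keep both after losing the nucleus. miR-451 is unusual because its hairpin is too short for Dicer and is cut by Argonaute 2 instead. In mice the locus protects red cells against oxidative stress, in part by repressing Ywhaz, a 14-3-3 adaptor protein. miR-486 lies inside Ank1, which encodes the ankyrin of the red cell membrane skeleton and has a shorter form in striated muscle. miR-486-5p is abundant in red cells and in striated muscle. In a tissue perfused by blood, these miRNAs are therefore often read as a mark of the blood it holds.

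RefSeq mature sequences on GRCm38.p6 were matched for 3 of the 6 names and are shown 5′ to 3′ with the seed, bases 2 to 8, in capitals, since the seed sets which messengers a miRNA pairs with.
mmu-miR-451a: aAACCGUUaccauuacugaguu
mmu-miR-144-5p: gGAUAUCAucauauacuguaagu
mmu-miR-144-3p: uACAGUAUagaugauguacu
mmu-miR-486a-5p, mmu-miR-486b-5p and mmu-miR-486a-3p are given by name. The 3 seeds differed from each other, and none was shared by any other of the 413 measured miRNAs with a sequence in that table. Over bases 2 to 7, mmu-miR-144-3p shared its seed with 1 measured miRNA, mmu-miR-101a-3p, shown here with those bases in capitals to compare the pair.
mmu-miR-101a-3p: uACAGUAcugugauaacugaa
The kidney held far more of mmu-miR-101a-3p, with a mean of 19259 CPM (counts per 1000000 after TMM scaling) over the 6 libraries, and the mean of mmu-miR-144-3p was 1.38% of that.

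Mir144 and Mir451a lie side by side on the plus strand of chromosome 11 of GRCm38, at chr11:78073005-78073070 and chr11:78073170-78073241, with 99 bases between them (GENCODE release M21). No other gene overlaps Mir144 there, and the nearest protein-coding gene is Eral1. Mir451b is annotated on the opposite strand over the same 72 bases as Mir451a. The hairpins are shown with the mature miRNAs in capitals.
Mir451a: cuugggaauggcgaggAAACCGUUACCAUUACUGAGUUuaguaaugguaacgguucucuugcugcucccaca
Mir144: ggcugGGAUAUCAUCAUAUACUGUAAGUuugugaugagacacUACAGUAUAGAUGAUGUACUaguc
In the Mir451a hairpin, bases 2 to 17 of the mature miRNA had their exact reverse complement in the other arm, so the capitals run from the stem into the loop. In the Mir144 hairpin, the longest such stretch of mmu-miR-144-3p was 9 bases, and its capitals mark both arms. Mir486, the precursor of both mmu-miR-486a arms, lies at chr8:23142555-23142682 on the plus strand, and Mir3107, the precursor of mmu-miR-486b-5p, lies inside the same stretch on the minus strand, at chr8:23142573-23142662. Both fall in an intron of Ank1, which is on the plus strand, and neither touches an Ank1 exon.

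The libraries held 5431797 to 7741499 counts over the 495 miRNAs. The kidney tubule miRNA mmu-miR-192-5p and the endothelial mmu-miR-126a-3p, markers of the labelled tissue, averaged 70610 and 53168 CPM. The 6 erythroid names together took 0.541% to 0.720% of the counts in Control libraries and 0.619% to 0.827% in CIH libraries, and mmu-miR-451a made up 75.9% to 81.7% of their counts. By mean CPM, mmu-miR-451a ranked 29 of the 495 miRNAs, mmu-miR-486b-5p 95, mmu-miR-486a-5p 96, mmu-miR-144-3p 117, mmu-miR-144-5p 146 and mmu-miR-486a-3p 385. Control replicate 3 had the lowest CPM for all 6 names, and CIH replicate 3 the highest for 4 of them.

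In CIH kidneys, miR-486-5p was higher than in Control kidneys by a fold of about 1.3 before correction for multiple tests, while mmu-miR-451a and both arms of miR-144 had nearly equal group means. At an unadjusted p under 0.05, 2 of the 6 names were higher in CIH and 0 were lower (edgeR's quasi-likelihood test), against a background of 2.83% higher and 5.05% lower among all 495 miRNAs. These 2 were mmu-miR-486b-5p and mmu-miR-486a-5p, whose counts were nearly the same in every library and are not independent evidence of each other. With the miR-486-5p pair taken once, as mmu-miR-486a-5p, the log2 fold change was above 0 for 4 of 5 names, where 48.3% of all miRNAs were above 0, and the signs of mmu-miR-451a and mmu-miR-144-5p among these 4 turned with single libraries left out. The median log2 fold change of the 5 was 0.09, and 0.24 with both names of the pair, beside -0.003 over all miRNAs. None of the 6 passed an adjusted p of 0.05, and over all miRNAs the share was 0%. At an unadjusted p under 0.05, edgeR called 39 miRNAs in all and DESeq2 called 29. Fewer cells of a type and less RNA per cell cannot be told apart in these bulk samples.

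**Figure D1:**
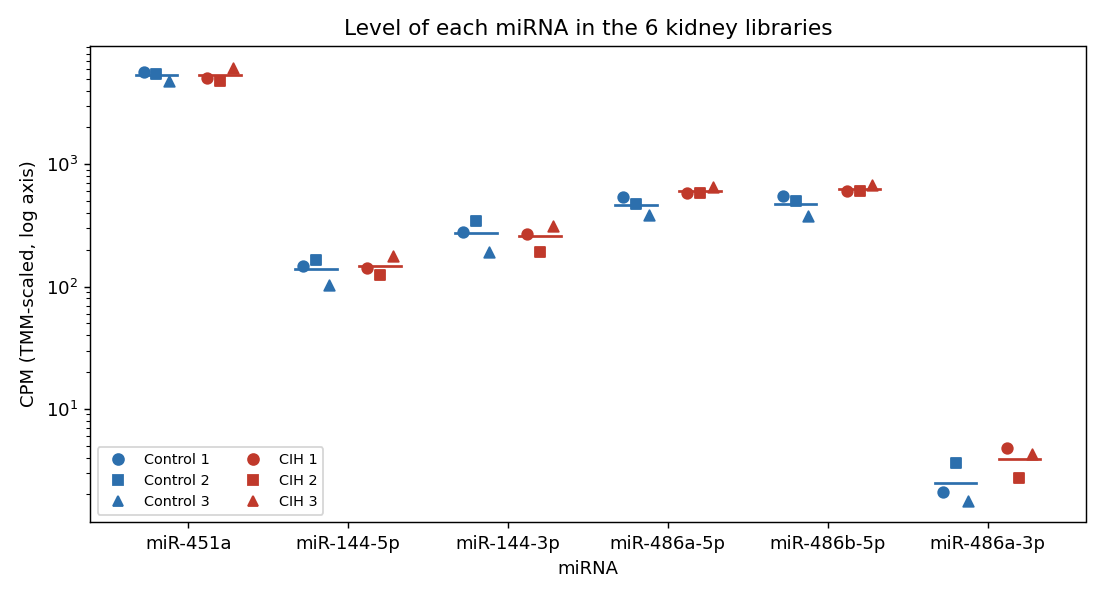
Level of each miRNA in the 6 kidney libraries, as TMM-scaled CPM on a log axis, with Control in blue, CIH in red, 1 marker shape per replicate number and a line at each group mean. mmu-miR-486b-5p and mmu-miR-486a-5p are the only names whose groups do not overlap, and mmu-miR-451a is the most abundant at a mean of 5327 CPM.

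mmu-miR-451a, the most red cell restricted of the set, stood at 5721, 5453 and 4759 CPM in Control replicates 1 to 3, against 5098, 4768 and 6164 CPM in CIH replicates 1 to 3. The highest and the lowest libraries were a CIH and a Control library, yet the groups overlapped over most of their range. The Control mean was 5311 ± 496 CPM and the CIH mean 5343 ± 730 CPM (SD, n = 3 each). The log2 fold change was 0.01 (standard error 0.12, adjusted p = 1.00 from edgeR), with a 95% interval from -0.27 to 0.29, or from 0.830-fold to 1.22-fold. The counts, 30044 or more in each library, gave a counting error of at most 0.577%, were each read an independent molecule, and the spread between libraries was 9.35% within Control and 13.7% within CIH. The sign of so small a difference depended on the library set, and it was -0.07 without Control replicate 3 and -0.11 without CIH replicate 3. It was also below 0, at -0.004 and -0.02, with a floor at a mean of 10 CPM and with precursor entries summed.

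mmu-miR-144-5p, one arm of the miR-144 hairpin, stood at 148, 164 and 104 CPM in the Control libraries, against 143, 124 and 177 CPM in the CIH libraries. mmu-miR-144-3p, the arm better known as a regulator, stood at 281, 345 and 193 CPM in Control replicates, against 267, 193 and 311 CPM in CIH replicates. For both arms Control replicate 3 and CIH replicate 2 were the 2 lowest libraries, 1 from each group, and the groups overlapped. The log2 fold change was 0.09 (standard error 0.19, adjusted p = 0.93 from edgeR) for mmu-miR-144-5p and -0.09 (standard error 0.22, adjusted p = 0.95) for mmu-miR-144-3p. The 95% intervals ran from -0.33 to 0.52 and from -0.58 to 0.41. Both signs turned with 1 library left out: mmu-miR-144-5p was at -0.08 without Control replicate 3 and -0.05 without CIH replicate 3, and mmu-miR-144-3p was at 0.12 without Control replicate 2 and 0.08 without CIH replicate 2. mmu-miR-101a-3p, which shares bases 2 to 7 with mmu-miR-144-3p, averaged 19608 ± 4025 CPM over the Control libraries and 18910 ± 545 CPM over the CIH libraries (SD, n = 3), with a log2 fold change of -0.05.

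mmu-miR-486a-5p stood at 535, 477 and 386 CPM in the Control libraries, against 578, 586 and 650 CPM in the CIH libraries. Every CIH library lay above every Control library, with the smallest gap between Control replicate 1 and CIH replicate 1. Groups that did not overlap in this direction made up 5.25% of all miRNAs tested. The Control mean was 466 ± 74.9 CPM and the CIH mean 605 ± 39.2 CPM (SD, n = 3 each), and the log2 fold change was 0.38 (standard error 0.13), with a 95% interval from 0.08 to 0.68. The unadjusted p was 0.019 and the adjusted p 0.58 from edgeR, and the miRNA ranked 13 of 495 by p. The log2 fold change was 0.25 without Control replicate 3 (unadjusted p = 0.047) and 0.32 without CIH replicate 3, where the unadjusted p rose to 0.076.

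mmu-miR-486b-5p, from the minus-strand precursor, stood at 551, 500 and 378 CPM in the Control libraries, against 602, 608 and 674 CPM in the CIH libraries, and its groups did not overlap either. The log2 fold change was 0.40 (standard error 0.14, unadjusted p = 0.020 and adjusted p = 0.58 from edgeR). Without Control replicate 3 it was 0.25, and without CIH replicate 3 it was 0.34 with an unadjusted p of 0.076. Its counts were 102.9%, 104.9% and 97.9% of those of mmu-miR-486a-5p in Control and 104.1%, 103.6% and 103.7% in CIH. Control replicate 3 was the only library with fewer counts for mmu-miR-486b-5p than for mmu-miR-486a-5p. Among the 302 miRNAs with a mean of at least 10 CPM, 5 pairs of names had counts within 5% of each other in all 6 libraries, and this was 1 of them. How a read that fits both precursors was counted is not given in the sources used here, so the 2 names cannot be told apart as sources of the difference. With mmu-miR-486b-5p left out of the table, mmu-miR-486a-5p had a log2 fold change of 0.38 (adjusted p = 0.60 from edgeR).

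mmu-miR-486a-3p, the scarce opposite arm, was counted 16, 20 and 12 times in the Control libraries, against 38, 20 and 26 times in the CIH libraries. CIH replicates 1 and 3 were above every Control library, and CIH replicate 2 had 2.73 CPM, below the 3.63 CPM of Control replicate 2. The log2 fold change was 0.68 (standard error 0.33, unadjusted p = 0.069 and adjusted p = 0.71 from edgeR), with a 95% interval from -0.06 to 1.43. At this depth counting error alone was wide, and the exact Poisson interval (95%) of the 12 counts of Control replicate 3 ran from 6.20 to 21.0. That of the 38 counts of CIH replicate 1 ran from 26.9 to 52.2. These intervals cover counting error only. The unadjusted p was 0.015 without Control replicate 2 (log2 fold change 1.01) and 0.027 without CIH replicate 2 (0.89), and with any other library left out it was 0.14 or more. The opposite arm of mmu-miR-486b-5p, mmu-miR-486b-3p, was not among the 495 miRNAs and has no value here. The paper reports that arm as upregulated, with a similar trend by RT-qPCR.

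**Figure D2:**
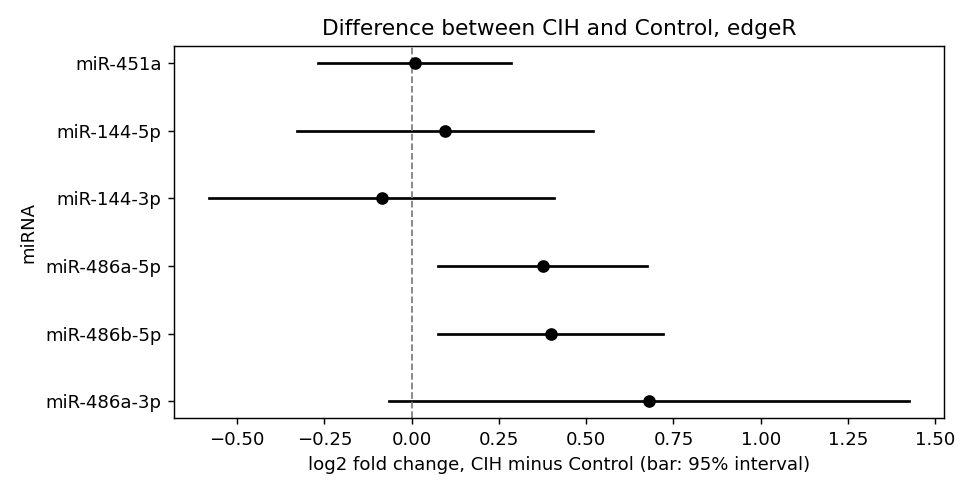
Log2 fold change of CIH over Control for each of the 6 names, with points at the edgeR estimate and bars for its 95% interval. The intervals of mmu-miR-486a-5p (0.08 to 0.68) and mmu-miR-486b-5p (0.08 to 0.72) lie above 0 before correction for multiple tests, and those of the other names span 0.

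A ratio of counts within 1 library does not depend on how the library was scaled, and it asks whether 1 erythroid miRNA changed relative to another. mmu-miR-486a-5p was 9.35%, 8.74% and 8.12% of mmu-miR-451a in Control and 11.3%, 12.3% and 10.5% in CIH. Every CIH library was above every Control library, and unlike the levels themselves, CIH replicate 2 was the highest. The log2 ratio was higher in CIH by 0.38, or 1.30-fold, with -3.52 ± 0.10 in Control and -3.14 ± 0.11 in CIH (SD, n = 3). The exact permutation test, two-sided, gave p = 0.1, the smallest that 3 samples against 3 allow, and an adjusted p of 0.53 over the 8 ratios computed. With each library left out in turn the difference ran from 0.33 to 0.44.

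mmu-miR-144-5p, from the same primary transcript as mmu-miR-451a, was 2.59%, 3.00% and 2.18% of it in Control and 2.80%, 2.59% and 2.87% in CIH. The 3 CIH values lay inside the Control range. The log2 ratio differed by 0.10 (exact permutation test, two-sided, p = 0.6, adjusted p = 0.93), and by -0.02 without Control replicate 3. mmu-miR-486a-5p was 3.62, 2.91 and 3.73 times mmu-miR-144-5p in Control and 4.05, 4.75 and 3.67 times in CIH, a log2 difference of 0.28 with overlapping groups (exact p = 0.2, adjusted p = 0.53). That difference was 0.17 without Control replicate 2 and 0.18 without CIH replicate 2.

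Between the arms of the miR-144 hairpin, mmu-miR-144-3p was 1.90, 2.11 and 1.86 times mmu-miR-144-5p in Control and 1.87, 1.56 and 1.76 times in CIH. The 3p arm outnumbered the 5p arm in all 6 libraries, and the ratio was lowest in CIH replicate 2. The log2 ratio was 0.96 ± 0.10 in Control and 0.79 ± 0.13 in CIH (SD, n = 3), a difference of -0.18 (exact permutation test, two-sided, p = 0.2, adjusted p = 0.53), which was -0.11 without CIH replicate 2 and -0.24 without CIH replicate 1. For miR-486a the 3p arm was 0.389% to 0.762% of the 5p arm in Control and 0.466% to 0.825% in CIH, and the groups overlapped (exact p = 0.5).

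**Figure D3:**
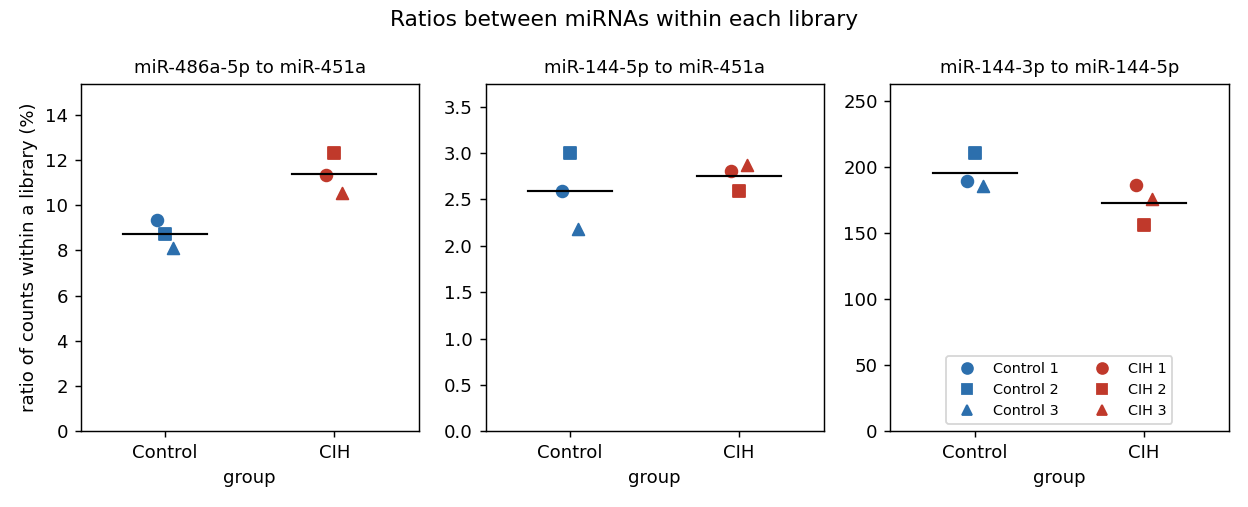
Ratio of counts between pairs of miRNAs within each library, in percent on axes that start at 0, with points for libraries and lines at group means. For mmu-miR-486a-5p to mmu-miR-451a the CIH libraries (10.5% to 12.3%) lie above the Control libraries (8.12% to 9.35%), and in the other panels the groups overlap.

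The content of blood was described with miRNAs of other kinds. In plasma, the ratio of mmu-miR-451a to mmu-miR-23a-3p, a miRNA that red cells hold little of, is used as an index of red cell lysis. Whether that index holds in whole kidney, where mmu-miR-23a-3p averaged 1301 CPM, was not tested, so the ratio is given as description only. In these kidneys the ratio was 4.19, 4.31 and 3.71 in Control and 4.65, 3.40 and 4.41 in CIH, a log2 difference of 0.02 (exact permutation test, two-sided, p = 0.9). The ratio of mmu-miR-451a to mmu-miR-16-5p, which red cells and most other cells hold, was 3.17, 3.29 and 2.44 in Control and 2.87, 2.64 and 3.36 in CIH, a log2 difference of 0.00 (exact p = 1). Both had overlapping groups, and the sign of each turned without Control replicate 3 (log2 differences of -0.05 and -0.13) and without CIH replicate 3 (-0.03 and -0.09), and that of the ratio to mmu-miR-23a-3p also without CIH replicate 1 (-0.07).

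A list of 13 other miRNAs abundant in red cells, among them mmu-miR-16-5p, mmu-miR-25-3p, mmu-miR-185-5p and mmu-miR-20a-5p, had a median log2 fold change of -0.03. Of the 13, 0 passed an unadjusted p under 0.05 in either direction, beside 2.83% higher and 5.05% lower over all miRNAs. The summed level of the list was 7811 to 8272 CPM in Control and 8213 to 8457 CPM in CIH. mmu-miR-25-3p, of the miR-106b/25 cluster, had a log2 fold change of 0.16 (unadjusted p = 0.12), and mmu-miR-93-5p of the same cluster one of 0.12 (unadjusted p = 0.26). These were the 2 of the 13 that were higher in every CIH library than in every Control library, as were 5.25% of all miRNAs tested. mmu-miR-106b-5p, of the same cluster, was at -0.08. By sign, 4 of the 13 were above 0 and 9 were below. Of the others named here, mmu-miR-185-5p stood at 0.13, mmu-miR-20a-5p at -0.03 and mmu-miR-16-5p at -7.2e-04. Nearly all of these 13 are also made in kidney cells, so the list does not measure red cells alone. A list of 6 miRNAs that decline as red cells mature had a median of -0.04. It had 0 members past the test, beside 2.83% higher and 5.05% lower over all miRNAs. It held mmu-miR-221-3p and mmu-miR-222-3p, which repress the growth factor receptor Kit, at log2 fold changes of -0.08 and -0.04, and mmu-miR-24-3p and mmu-miR-155-5p at 0.05 and 0.08.

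Of 8 leukocyte miRNAs, 0 passed the test in either direction, beside 2.83% higher and 5.05% lower over all miRNAs. Their median log2 fold change was 0.01, and their summed level was 4091 to 4223 CPM in Control and 4072 to 5232 CPM in CIH, with CIH replicate 2 apart at the top. mmu-miR-146a-5p, which restrains inflammatory signalling, had the highest level at a mean of 2981 CPM and a log2 fold change of 0.15. mmu-miR-142a-5p, mmu-miR-146b-5p and mmu-miR-142a-3p, the other 3 most abundant, were at 0.04, 0.16 and -0.08. The platelet and neutrophil miRNA mmu-miR-223-3p was at -0.24 (standard error 0.21).

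miR-486 is also a striated muscle miRNA, and 6 of 7 listed muscle miRNAs were measured. Their median log2 fold change was 0.13, with 4 above 0 and 2 below. By library their summed level was 374, 322 and 402 CPM in Control replicates 1 to 3, and 391, 440 and 306 CPM in CIH replicates 1 to 3. Of the 6, 0 passed the test in either direction, beside 2.83% higher and 5.05% lower over all miRNAs. mmu-miR-1a-3p, the most abundant of them, had a mean of 341 CPM and a log2 fold change of 0.04. mmu-miR-133a-3p averaged 13.9 CPM and mmu-miR-499-5p 12.3 CPM, with log2 fold changes of 0.21 and -0.06. mmu-miR-133b-3p, at a mean of 2.17 CPM, had a log2 fold change of 0.54 (unadjusted p = 0.096 from edgeR). Its groups did not overlap, as for 5.25% of all miRNAs in this direction. mmu-miR-206-3p and mmu-miR-208a-3p, at means of 1.66 and 1.39 CPM, had log2 fold changes of -0.42 and 0.86.

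The endothelial mmu-miR-126a-3p and mmu-miR-126a-5p had log2 fold changes of -0.00 and -0.09, and their summed level was 49948 to 59944 CPM in Control and 52882 to 56041 CPM in CIH. The median log2 fold change of the 5 tubule miRNAs was -0.18. Of them 0 passed the test, beside 2.83% higher and 5.05% lower over all miRNAs. Among the 5, mmu-miR-204-5p was lower in every CIH library at -0.32 (unadjusted p = 0.053 from edgeR). This was not particular to it: among other miRNAs, mmu-miR-130a-3p (-0.21) and mmu-miR-152-5p (-0.25) were also lower in every CIH library. mmu-miR-30a-5p, mmu-miR-10a-5p, mmu-miR-192-5p and mmu-miR-194-5p were at -0.26, -0.18, -0.05 and 0.10. The liver miRNA mmu-miR-122-5p was 77.9 CPM in CIH replicate 3, the library highest in mmu-miR-451a and miR-486-5p, 48.1 CPM in Control replicate 3, the library lowest in them, and 17.4 to 21.0 CPM in the other 4. The part of other cell types in the higher miR-486-5p was not tested. mmu-miR-210-3p, a direct target of the hypoxia factor HIF1A that also rises in maturing red cells, had a log2 fold change of -0.32 (unadjusted p = 0.068) with overlapping groups, and its difference in mean log2 CPM went from -0.32 to -0.20 without CIH replicate 1.

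**Figure D4:**
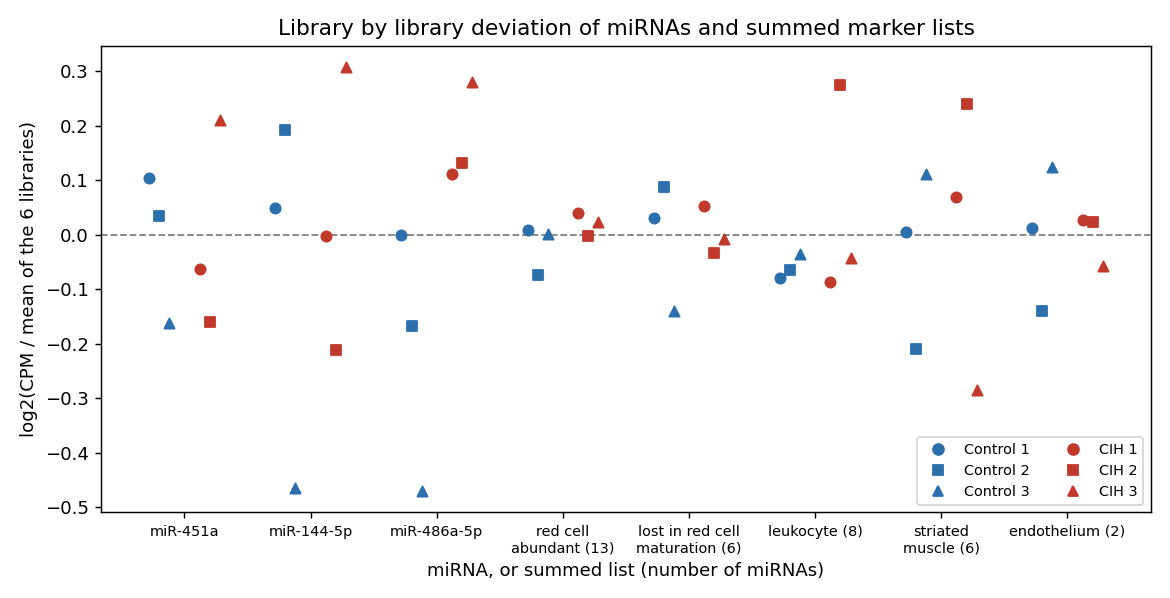
Deviation of each library from the mean of the 6, as log2 of CPM over that mean, for 3 of the erythroid miRNAs and for the summed CPM of 5 marker lists (number of miRNAs in brackets), with Control in blue and CIH in red. mmu-miR-486a-5p separates the groups, while the leukocyte sum (4072 to 5232 CPM) and the muscle sum (306 to 440 CPM) overlap.

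The miRNAs outside the set with the pattern most like mmu-miR-451a over the 6 libraries were sought among 297 with a mean of at least 10 CPM, by Pearson correlation of log2(CPM + 0.5). They were mmu-miR-363-3p (r = 0.94, Spearman 0.94), mmu-miR-20b-5p (r = 0.87, Spearman 0.83), mmu-miR-142a-3p (r = 0.87, Spearman 0.89) and mmu-miR-708-5p (r = 0.83, Spearman 0.77). mmu-miR-363-3p and mmu-miR-20b-5p come from 1 cluster and are both on the red cell list, and mmu-miR-142a-3p is on the leukocyte list. Without CIH replicate 3 and Control replicate 3, the libraries farthest from the median of mmu-miR-451a, r was 0.87, 0.99, 0.98 and 0.71 in the same order. Within the set, mmu-miR-144-5p had r = 0.88 with mmu-miR-451a and mmu-miR-144-3p had r = 0.82. mmu-miR-486a-5p had r = 0.51 with mmu-miR-451a, and r was -0.68 without those 2 libraries. The likeness to mmu-miR-451a did not extend to every member of the red cell and leukocyte lists. mmu-miR-16-5p, the most abundant on the red cell list, was highest in Control replicate 3 (1952 CPM), where mmu-miR-451a was lowest. mmu-miR-146a-5p, the most abundant on the leukocyte list, was highest in CIH replicate 2 (3842 CPM), where mmu-miR-451a stood at 4768 CPM.

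For mmu-miR-486a-5p the most alike miRNA was mmu-miR-378b (r = 0.94, Spearman 0.94), named as a relative of the metabolic miR-378a. mmu-miR-378b averaged 787 ± 63.7 CPM over the Control libraries and 978 ± 38.3 CPM over the CIH libraries (SD, n = 3), a log2 fold change of 0.31 (unadjusted p = 0.014 and adjusted p = 0.58 from edgeR). mmu-miR-872-5p (r = 0.82, Spearman 0.60), mmu-let-7j (r = 0.82, Spearman 0.77) and mmu-miR-1968-5p (r = 0.81, Spearman 0.71) followed. Without Control replicate 3 and CIH replicate 3, r was 0.78 for mmu-miR-378b, -0.82 for mmu-miR-872-5p, 0.46 for mmu-let-7j and 0.48 for mmu-miR-1968-5p, so the likeness of mmu-miR-872-5p rested on those 2 libraries. These correlations describe 6 libraries, share their scaling, and the highest of 297 were taken, so no p is given.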

How the data were processed

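Small RNA libraries of 3 Control and 3 CIH kidney samples were grouped by the titles in the labels. The authors deposited raw read counts per miRNA entry, with adapters trimmed by cutadapt and reads aligned by Bowtie according to the submitters' processing notes, without versions or a miRBase release being given in the sources used here. Of 584 entries, 133 belonged to 44 miRNAs listed more than once, of which the most counted entry was used. miRNAs with counts in at least 3 libraries, all 495, were tested with edgeR 4.0.16 (quasi-likelihood test, TMM, condition only, Benjamini-Hochberg adjusted over all) in R 4.3.3. The scripts were checked on simulated counts. Ratios used log2 with 0.5 added to each count. Positions are those of GENCODE release M21 (GRCm38), and sequences those of RefSeq (GRCm38.p6). The names, lists and tests were chosen with earlier results of these data known. The text names every entry with the 3 prefixes, list members past an unadjusted p under 0.05 and the 4 most abundant of each list, and the 4 most alike miRNAs, and any other name was chosen after its values were seen. The 144-3p and 486a-3p results, the arm ratios and the ratio of mmu-miR-486a-5p to mmu-miR-144-5p were added after the data were seen. Alternatives covered scaling, DESeq2 1.42.0, filters, entries, a replicate block and each library left out.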

Additional observations from a re-analysis of the deposited data

How the results depend on the processing

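mmu-miR-486a-5p kept its direction under all 16 alternatives and mmu-miR-486b-5p under all 15, with log2 fold changes from 0.25 to 0.46 and from 0.25 to 0.49, an unadjusted p under 0.05 in 15 and 14 of them, and adjusted p-values from 0.34 to 0.93 (edgeR or DESeq2). mmu-miR-486a-3p kept its direction in all 15, from 0.49 to 1.01. No alternative gave any miRNA an adjusted p under 0.05. The alternatives include a fit with no filter on low counts, which only repeats the main fit because all 495 miRNAs passed the filter. The number at an unadjusted p under 0.05, 39 in all, was 24 at a mean of at least 10 CPM and ran from 21 to 67 with 1 library left out, the lowest 2 being 21 without CIH replicate 2 and 22 with CIH replicate 1 left out, and the highest 67 with Control replicate 2 left out.

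mmu-miR-451a turned to -0.0040 at a mean of at least 10 CPM and to -0.020 with precursor entries summed, and ran from -0.11 to 0.084 with 1 library left out. mmu-miR-144-5p ran from -0.081 to 0.23 and mmu-miR-144-3p from -0.29 to 0.12 in the same way. Of the ratios to mmu-miR-451a, that of mmu-miR-486a-5p ran from 0.33 to 0.44 and that of mmu-miR-144-5p from -0.017 to 0.21, and mmu-miR-486b-5p to mmu-miR-486a-5p ran from -0.0014 to 0.048. mmu-miR-451a to mmu-miR-23a-3p ran from -0.070 to 0.15 and to mmu-miR-16-5p from -0.13 to 0.083, the latter being -8.5e-04 with entries summed. The causes were not tested.

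With the replicate number as a block, mmu-miR-486a-5p had a log2 fold change of 0.39 (adjusted p = 0.71 from edgeR) and 32 miRNAs had an unadjusted p under 0.05, against 39 without it, and none an adjusted p under 0.05 in either fit. Same-numbered samples did not deviate together (correlations of -0.06, -0.15 and -0.03), so the numbers were not taken as pairs. Depth limits mmu-miR-486a-3p, at 12 to 38 counts per library.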
